A study of Mus musculus with 7 samples.

Results

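The regions described here are stretches of chromatin in adipose tissue macrophages that were least accessible in mice that had lost weight: less accessible than in mice kept on a regular diet, and less accessible again than in mice still on a high-fat diet. They were chosen by measured values, as every autosomal region of the 7 deposited tables whose mean log2(normalized count + 1) in HFD-RD was at least 1 below that in RD-RD and at least 0.7 below that in HFD. The rule selected 545 of the 5790 autosomal regions, or 9.41%, out of 5898 deposited regions in all, and the authors assigned them to 454 genes. The assay was ATAC-seq, which tags open DNA with a transposase and counts the tagged fragments, and the cells were adipose tissue macrophages obtained by FACS from male adults of the strain C57Bl/6J. The 3 HFD libraries come from mice given food of 60% lipid during 11 weeks. The 2 HFD-RD libraries come from mice given that food during 11 weeks and afterwards food of 10% lipid (the regular diet, RD) during 9 weeks to trigger weight loss. The 2 RD-RD libraries come from mice given regular food during 20 weeks, so time on study differed between HFD and the other groups and cannot be told apart from diet there. The sources used here do not say whether a library holds 1 mouse or several, so the spread between libraries may be technical. The source name of each of the 7 libraries states another diet than its title and diet label; the latter were followed. The tables hold regions that the authors had selected for differing between these diets, so shares are read against the other deposited regions and not against the genome.

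Accessible regions are mostly promoters and enhancers, where bound factors keep nucleosomes away, and a loss of reads over such a region means that fewer of its copies in the sample were open. Adipose tissue holds resident macrophages, which clear dying cells and iron, lie along vessels and carry receptors such as TIM-4, CD163 and LYVE-1. In obesity it gains lipid-laden macrophages that derive from blood monocytes. In a bulk library, fewer cells of 1 type and less open chromatin per cell cannot be told apart, which holds for every value below.

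Promoter sequences are shown first, as chosen examples of low and high CpG content among those of the 545 regions that lie over gene starts. Gene class and CpG content did not divide in this way over all such regions, as described further on. The first 3 belong to receptors of resident macrophages and hold few CpG dinucleotides, and the last 3 belong to genes best known from the nervous system and the embryo and are CpG-rich. Each window runs from 250 bases before to 50 bases after a RefSeq gene start (GRCm38.p6) and is written 5′ to 3′ along the gene, with CpG dinucleotides in capitals. The windows lie at chr8:4105715-4106014, minus strand (Cd209f), chr8:3878450-3878749, minus strand (Cd209d), chr11:46810549-46810848, plus strand (Timd4), chr12:103242097-103242396, minus strand (Prima1), chr5:98253934-98254233, plus strand (Fgf5) and chr13:54949161-54949460, plus strand (Unc5a).
Cd209f: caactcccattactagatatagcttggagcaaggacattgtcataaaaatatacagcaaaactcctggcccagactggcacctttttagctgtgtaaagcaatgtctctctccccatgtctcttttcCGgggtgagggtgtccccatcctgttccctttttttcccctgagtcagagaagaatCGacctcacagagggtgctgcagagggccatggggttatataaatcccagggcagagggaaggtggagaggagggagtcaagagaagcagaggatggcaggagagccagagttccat
Cd209d: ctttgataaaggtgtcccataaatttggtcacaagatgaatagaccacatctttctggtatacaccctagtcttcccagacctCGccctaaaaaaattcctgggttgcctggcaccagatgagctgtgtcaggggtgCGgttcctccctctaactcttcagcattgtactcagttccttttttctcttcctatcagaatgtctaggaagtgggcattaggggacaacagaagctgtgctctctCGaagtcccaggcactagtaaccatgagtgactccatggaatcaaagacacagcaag
Timd4: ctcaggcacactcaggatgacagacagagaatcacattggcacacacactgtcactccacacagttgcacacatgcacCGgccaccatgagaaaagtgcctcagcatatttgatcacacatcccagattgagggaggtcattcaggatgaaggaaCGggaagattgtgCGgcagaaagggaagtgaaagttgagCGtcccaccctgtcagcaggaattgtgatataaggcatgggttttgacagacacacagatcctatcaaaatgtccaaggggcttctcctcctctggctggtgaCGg
Prima1: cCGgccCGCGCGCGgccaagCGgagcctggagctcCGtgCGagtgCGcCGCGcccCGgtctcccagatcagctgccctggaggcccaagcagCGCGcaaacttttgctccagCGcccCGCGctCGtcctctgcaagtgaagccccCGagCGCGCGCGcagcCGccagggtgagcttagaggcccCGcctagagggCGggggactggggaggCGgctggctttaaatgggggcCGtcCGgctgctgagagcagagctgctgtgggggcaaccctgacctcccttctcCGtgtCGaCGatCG
Fgf5: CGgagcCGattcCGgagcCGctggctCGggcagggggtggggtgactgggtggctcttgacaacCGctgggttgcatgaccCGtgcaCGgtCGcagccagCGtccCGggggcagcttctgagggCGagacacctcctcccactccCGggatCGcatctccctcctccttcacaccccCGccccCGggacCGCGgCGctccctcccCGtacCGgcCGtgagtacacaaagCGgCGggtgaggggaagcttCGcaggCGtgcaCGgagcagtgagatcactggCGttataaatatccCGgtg
Unc5a: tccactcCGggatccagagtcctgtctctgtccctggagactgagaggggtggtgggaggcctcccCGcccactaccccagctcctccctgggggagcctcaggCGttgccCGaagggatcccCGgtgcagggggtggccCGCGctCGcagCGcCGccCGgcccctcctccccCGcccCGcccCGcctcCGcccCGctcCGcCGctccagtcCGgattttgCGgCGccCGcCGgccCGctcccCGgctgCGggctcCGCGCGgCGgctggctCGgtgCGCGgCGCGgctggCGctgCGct

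The 3 receptor windows held 2 (Cd209f), 3 (Cd209d) and 5 (Timd4) CpG dinucleotides at a GC content of 50.3%, 47.0% and 50.7%. The other three held 33 (Prima1), 29 (Fgf5) and 37 (Unc5a) at 71.7%, 68.3% and 78.3%. Among 31365 RefSeq windows on autosomes the median was 7 CpG dinucleotides and 53.0% GC, so the receptor windows lie below that median in CpG count and the other three far above it. All 6 windows lie wholly inside a region that closed further.

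The 6 regions over these windows shared an order of diets, highest in RD-RD, then HFD, then HFD-RD. At Cd209f, a lectin receptor of the mouse DC-SIGN family, the region chr8:4105385-4106121 gave 214 and 215 in RD-RD, 53.3, 59.2 and 53.3 in HFD, and 38.3 and 20.4 in HFD-RD (normalized counts). The 3 groups did not overlap, and most of the loss was already present in HFD: the log2 difference was -1.94 ± 0.24 (SE) for HFD minus RD-RD and -0.96 ± 0.24 for HFD-RD minus HFD. At Cd209d, another lectin of that family, chr8:3878321-3878889 gave 234 and 196 in RD-RD, 77.7, 90.5 and 86.8 in HFD, and 31.0 and 29.6 in HFD-RD. Here, with the authors' scaling, the second step, -1.46 ± 0.18, was about as large as the first, -1.33 ± 0.18. Which step is larger depends on the scaling, as described further on. At Timd4, which encodes TIM-4, a phosphatidylserine receptor for apoptotic cells, chr11:46810322-46810879 gave 168 and 129.6 in RD-RD, 45.2, 46.1 and 53.3 in HFD, and 41.9 and 16.7 in HFD-RD, and 1 HFD-RD library lay just below the lowest HFD library.

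Prima1 encodes the membrane anchor of acetylcholinesterase. Its start region, chr12:103241779-103243209, gave 600.4 and 560.2 in RD-RD, 221, 233 and 278 in HFD, and 78.4 and 83.3 in HFD-RD, with no overlap between groups. The region over the start of Fgf5, a fibroblast growth factor, chr5:98253882-98254792, gave 258 and 183 in RD-RD, 76.8, 70.8 and 78.2 in HFD, and 32.8 and 56.5 in HFD-RD. The region over the start of Unc5a, a netrin receptor, chr13:54948687-54950349, gave 376 and 380.2 in RD-RD, 229.9, 238 and 263 in HFD, and 137 and 145 in HFD-RD. The log2 difference of HFD-RD minus RD-RD was -2.83 ± 0.20 at Prima1, -2.31 ± 0.27 at Fgf5 and -1.42 ± 0.19 at Unc5a, against -2.89 ± 0.27 at Cd209f, -2.78 ± 0.20 at Cd209d and -2.43 ± 0.34 at Timd4. These differences chose the regions and are given as a description.

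**Figure D1:**
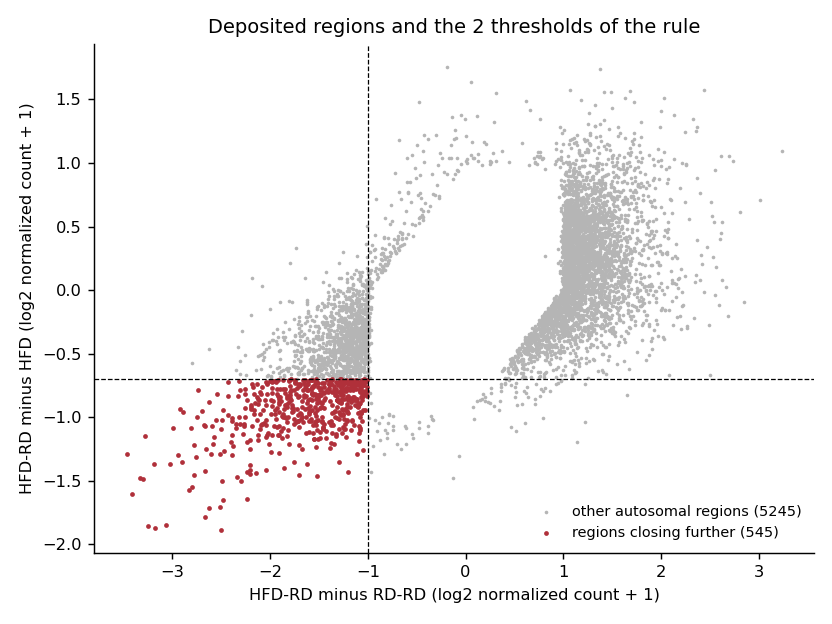
Each point is 1 of the 5790 autosomal deposited regions, with the difference of HFD-RD minus RD-RD on the x axis and of HFD-RD minus HFD on the y axis, both in log2(normalized count + 1), and dashed lines at the thresholds of -1 and -0.7. The 545 regions closing further (red) fill the lower left corner, and the empty centre is where the authors' own selection removed regions.

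Place in the genome was not part of the rule. Of the 545 regions, 76 (13.9%) overlapped the start of their assigned gene, against 5.11% of all autosomal deposited regions. The share was of the same size, 14.4%, among the 1153 other regions that were lower in HFD-RD than in RD-RD by at least 1 without passing -0.7 against HFD. Among the 433 regions that met the mirror-image rule and opened further, 0 overlapped a gene start. Regions inside genes were fewer, at 28.4% against 35.5% of all, and regions over 100 kb from their gene were more, at 17.6% against 12.5%. Among the 1153 other closed regions these shares were 27.8% and 15.7%, so both shifts were seen there too. The median width was 662 bp against 732 bp of all and 701 bp of the 1153.

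**Figure D2:**
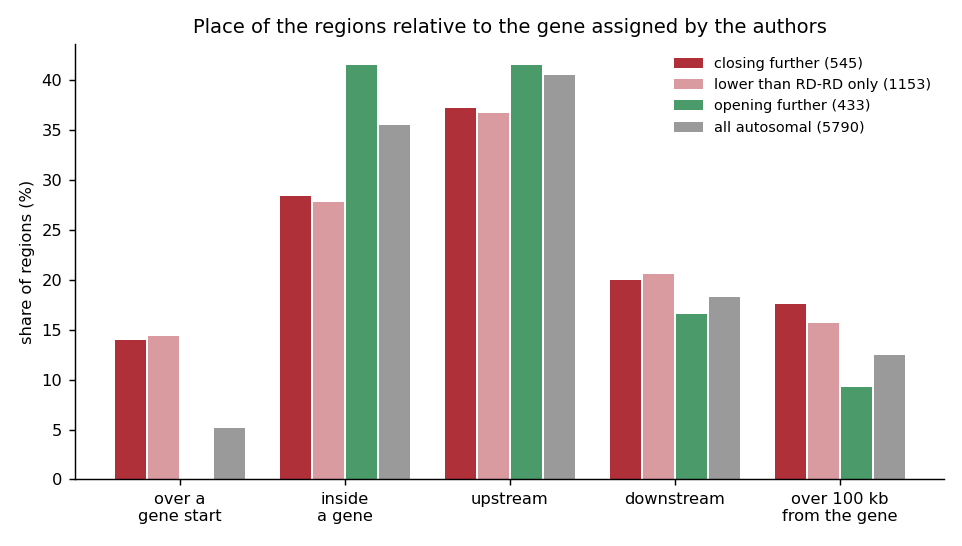
Share of regions (%) by place relative to the gene the authors assigned, for the 545 regions closing further, the 1153 regions lower than RD-RD only, the 433 regions opening further and all 5790 autosomal regions. The last set of bars, distance over 100 kb, overlaps the upstream and downstream classes, and no region opening further lies over a gene start.

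The regions overlapped 81 RefSeq promoter windows of 77 genes by at least 1 base, and most of these windows were CpG-rich. The median window held 27 CpG dinucleotides at 66.3% GC, against 18 and 62.8% for the 184 windows under the other closed regions and 16 and 61.3% for the 366 windows under all autosomal deposited regions. Windows with at least 10 CpG dinucleotides made up 84.0%, 78.3% and 66.9% of these sets, and 43.9% of all RefSeq windows. The window of the developmental regulator Hoxd9 held 20. Outside chromosome 18, 13 windows held fewer than 10, including the 3 receptor windows above. Genes other than these receptors thus also had CpG-poor windows, such as Prickle2 with 7 CpG dinucleotides and Lrtm2 with 6. Both were named after their values were seen. The 11 regions that overlapped only such CpG-poor windows had a median HFD-RD minus RD-RD difference of -1.76, and the 59 regions over CpG-rich windows one of -1.42.

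**Figure D3:**
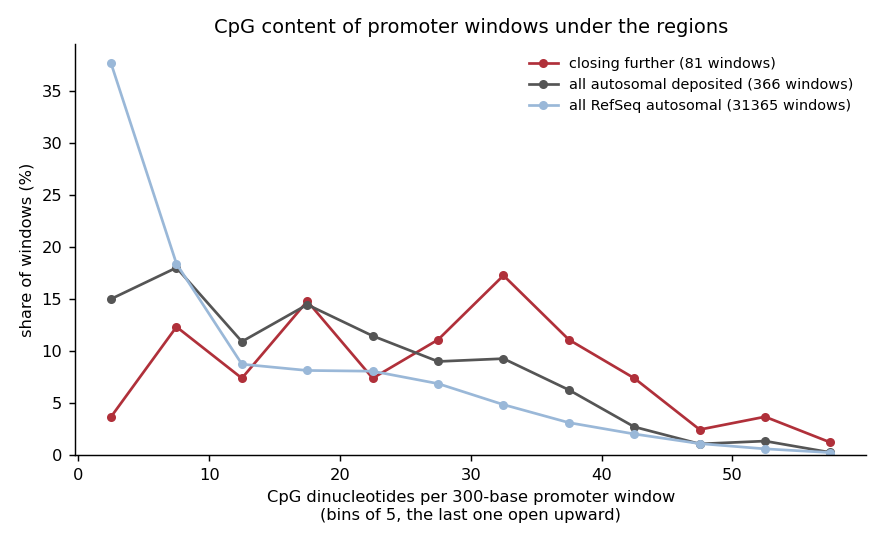
Share of 300-base promoter windows (%) by their number of CpG dinucleotides, in bins of 5, for the 81 windows under regions closing further, the 366 windows under all autosomal deposited regions and all 31365 RefSeq autosomal windows. The windows under regions closing further peak between 30 and 34 CpG dinucleotides, and the RefSeq windows below 5.

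Motif matches were counted on either strand of the windows. A GC box (GGGGCGG) was present in 44.4% of the 81 windows, against 36.1% under all deposited regions and 23.4% of all RefSeq windows. The NF-kB motif, read as GGGA and CC with 4 bases of any kind between them, was in 30.9%, 28.1% and 21.0% of the same sets. The AP-1 sequence TGANTCA was in 6.17% (5 windows, 1 of them the Cd209f window), against 9.29% and 7.85%, and the C/EBP sequence TTGCNNAA was in 1.23% (1 window), against 9.56% and 10.9%. The PU.1 sequence GAGGAAGT, for the factor that defines macrophages, was in 1.23% (1 window, at Areg), against 2.46% and 3.25%. In the 184 windows under the 1153 other closed regions the shares of these motifs were, in the same order, 42.4%, 29.3%, 4.89%, 10.3% and 2.17%. The GC box and NF-kB shares were thus near those of the 81 windows and not particular to them. A match is only a string of letters in the window, and most of the 545 regions lie over no window and were not searched.

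Over all 545 regions, the median normalized count was 168 and 164 in the RD-RD libraries, 94.8, 90.5 and 97.1 in the HFD libraries, and 47.4 and 51.8 in the HFD-RD libraries. HFD-RD was lowest, as the 2 thresholds require, and HFD was intermediate in the typical region. The median log2 differences were -1.56 for HFD-RD minus RD-RD, -0.88 for HFD-RD minus HFD and -0.66 for HFD minus RD-RD, where the medians over all autosomal deposited regions were 1.03, -0.05 and 0.76. With the authors' scaling the typical deposited region was thus higher than RD-RD after either diet, but for HFD minus RD-RD the median turned to -0.04 with TMM scaling (a trimmed mean of log ratios).

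**Figure D4:**
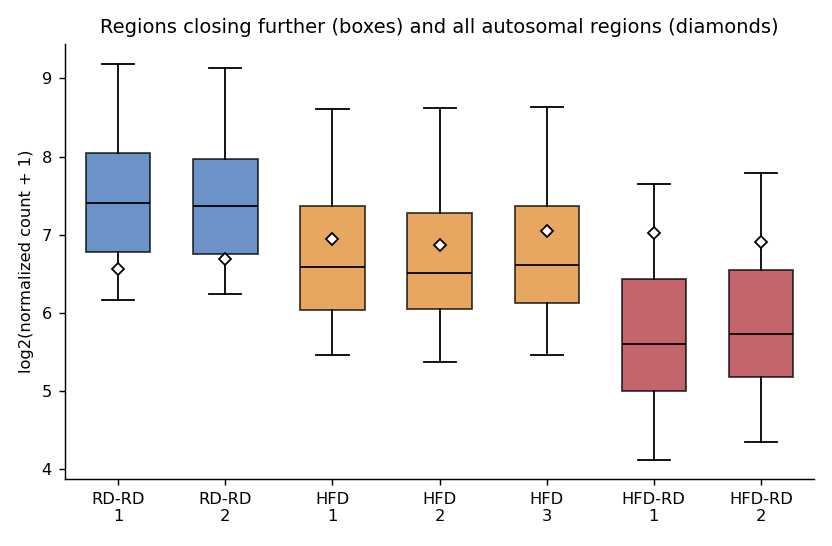
Boxes show log2(normalized count + 1) of the 545 regions in each of the 7 libraries (line: median; box: quartiles; whiskers: 5th to 95th percentile), and diamonds the median of all 5790 autosomal regions. The boxes step down from RD-RD through HFD to HFD-RD, while the diamonds are lowest in RD-RD.

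The fit across all deposited regions gives the background for these counts. limma with Benjamini-Hochberg adjustment called 1909 of 5898 regions (32.4%) lower in HFD-RD than in RD-RD, 757 (12.8%) lower in HFD-RD than in HFD and 1710 (29.0%) lower in HFD than in RD-RD. Of the 545 regions it called 545, 496 and 343 in these comparisons, but the rule used the first and the second and fixes much of the third, so nothing is read from these counts. In the same fit 3822, 603 and 3490 regions were called higher, and scaling moves these splits; the counts over gene lists given further on are with the authors' scaling. With TMM scaling over the deposited regions in place of the authors' size factors, 1997 were lower and 1041 higher in HFD-RD than in RD-RD, and 2104 lower and 777 higher in HFD than in RD-RD, and with equal totals of normalized counts per library 1588 were lower and 361 higher in HFD-RD than in HFD. The number called against HFD depends on single libraries: 757 became 119 without HFD-RD library 1, 271 without HFD library 1, 503 without HFD library 2 and 393 without HFD library 3, and the number among the 545 became 94, 223, 375 and 329.

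The thresholds place HFD above HFD-RD but do not fix on which side of RD-RD it lies, and its mean was below RD-RD in 538 of the 545 regions. In 452 (82.9%) every HFD library was below both RD-RD libraries, against 31.3% of all autosomal deposited regions. In the 1153 other closed regions, which were chosen from the same libraries in a way that forces HFD below RD-RD, this held for 1139 (98.8%), and the median HFD minus RD-RD difference was -0.87 against -0.66. A lower level in HFD was therefore not particular to the 545 regions. In 429 (78.7%) all 7 libraries were ordered by diet without overlap, against 660 (57.2%) of the 1153 and 19.1% of all autosomal regions. All these values entered the choice of regions, so the shares are a description. In 7 regions the HFD mean was above the RD-RD mean, so "closing further" does not describe them: only HFD-RD was below RD-RD. With TMM scaling, or with equal totals computed without the 2 regions with the most reads, 0 of the 545 regions had HFD above RD-RD. Those 2 regions hold 10.0% to 28.2% of a library's normalized counts over the deposited regions.

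The step from HFD to HFD-RD was the larger of both steps in 382 regions and the step from RD-RD to HFD in 163. This division depends on how the libraries are scaled: with equal totals it was 453 and 92, with equal totals computed without the 2 regions with the most reads 260 and 285, and with TMM scaling 43 and 502. With every scaling tried, all 545 regions stayed lower in HFD-RD than in both other groups. The upward shifts between scalings were small beside the thresholds of -1 and -0.7, so the rule fixed this outcome and nothing is read from it. The median over all autosomal regions itself moved with the scaling, for HFD-RD minus RD-RD from 1.03 to 0.84, 0.74 and 0.27 in the same order, for HFD minus RD-RD from 0.76 to 0.78, 0.48 and -0.04, and for HFD-RD minus HFD from -0.05 to -0.26, -0.06 and -0.01.

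Each library was also held out, the rule applied to the other 6, and the chosen regions looked up in the library that had not been used. Without HFD-RD library 1 the rule chose 507 regions, and that library was below the means of both other groups in 483 of them (95.3%), against 28.3% of all autosomal regions, but past both thresholds in only 257 (50.7%), against 10.3%. Without HFD-RD library 2 it chose 598 regions, of which that library was below both means in 585 (97.8%, against 29.5%) and past both thresholds in 257 (43.0%, against 8.76%). Held-out RD-RD libraries were past their threshold in 94.5% and 93.9% of the regions chosen without them, against 27.96% and 26.13% of all autosomal regions. For the held-out HFD libraries these shares were 74.4%, 66.4% and 76.0%, against 11.0%, 10.4% and 15.2%. The reference groups and the deposited selection are still shared, so these are not independent samples.

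Depth differed between the libraries, and its part in the result was not tested. Reads in the deposited regions were 889422 and 1479141 in the HFD-RD libraries, 1034618 and 916247 in the RD-RD libraries and 1523146 to 2807495 in the HFD libraries, and a region of the 545 held as few as 5 reads in HFD-RD library 1, where 171 of them had under 20 reads. The HFD-RD libraries differed by a median of 0.34 on the log2 scale within a region, and by more than 1 in 51 regions.

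Receptors and secreted factors of resident macrophages were the largest group among the listed genes. Of 31 autosomal deposited regions of genes on a list of 34 resident macrophage genes, 23 were called lower and 8 higher in HFD-RD than in RD-RD (limma). Over all deposited regions 32.4% were called lower and 64.8% higher. The list had a median of -1.17 against 1.03 over all autosomal regions. The 545 regions included 9 of the 31 (29.0%, against 9.41% of all), from 7 genes. Besides the gene starts above, a Cd209f region 17195 bp from the gene start, chr8:4088640-4089225, gave 249 and 238 in RD-RD, 107, 95.4 and 63.6 in HFD, and 49.2 and 50.9 in HFD-RD. Reads from near-identical copies within the Cd209 cluster may be shared between its genes.

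Cd163 encodes the scavenger receptor for haemoglobin bound to haptoglobin, and 2 of its intragenic regions closed further. The wider one, chr6:124311014-124312345, gave 387 and 376 in RD-RD, 222, 267 and 145 in HFD, and 126 and 66.7 in HFD-RD, and the narrower one, chr6:124308921-124309336, gave 197 and 183 in RD-RD, 98.0, 115 and 64.5 in HFD, and 38.3 and 58.3 in HFD-RD. Their HFD-RD minus RD-RD differences were -2.05 ± 0.33 and -1.98 ± 0.29. HFD library 3 was the lowest of its group at both regions and lay closest to the higher HFD-RD library.

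Lyve1, Pf4 and Igf1 were named after their values were seen, to account for the rest of this list. Lyve1 encodes a hyaluronan receptor, and its start region, chr7:110862623-110863479, gave 445 and 408 in RD-RD, 257, 233 and 251 in HFD, and 106 and 135 in HFD-RD, without overlap. Near Pf4, the chemokine platelet factor 4, chr5:90777322-90778640 gave 211 and 220.3 in RD-RD, 187, 170.3 and 184 in HFD, and 78.4 and 124 in HFD-RD. The Igf1 region, in the gene for an insulin-like growth factor, is 1 of the 7 exceptions: chr10:87889820-87890258 gave 77.2 and 70.6 in RD-RD, 70.5, 83.9 and 107 in HFD, and 21.9 and 56.5 in HFD-RD, so HFD and RD-RD overlapped and the HFD-RD libraries themselves differed more than 2-fold.

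**Figure D5:**
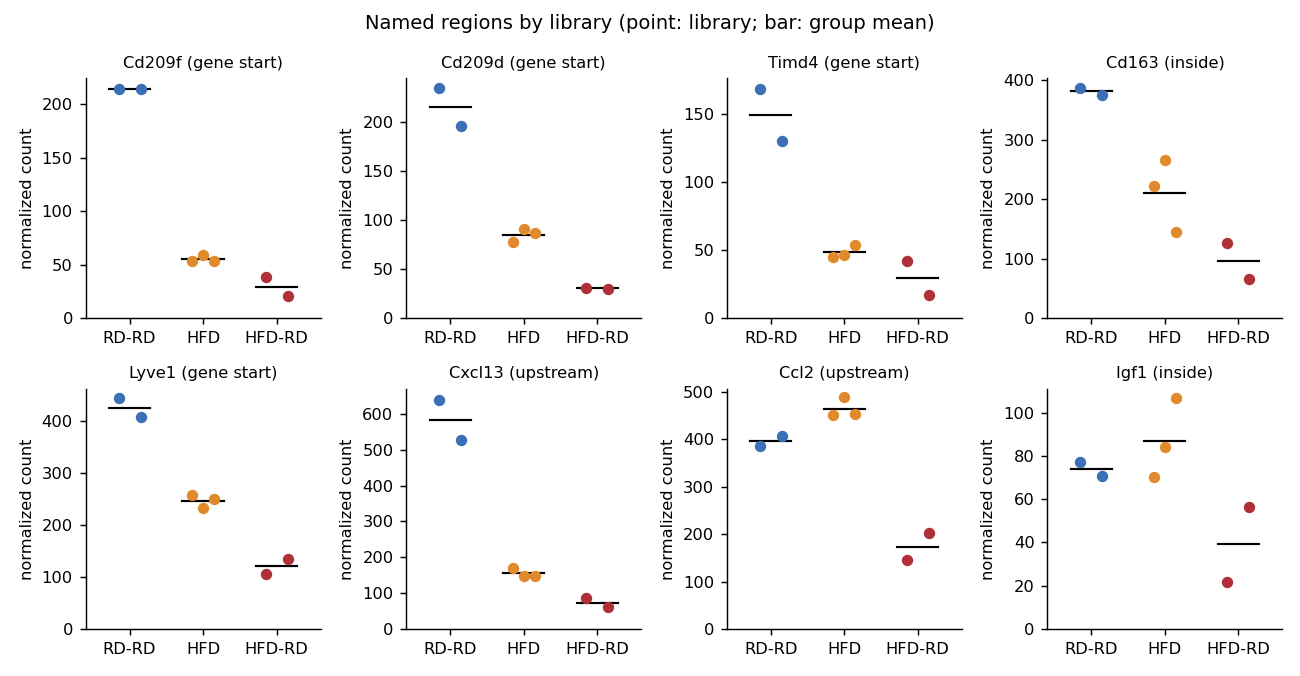
Normalized counts of 8 regions in the 7 libraries (points) with group means (bars), each panel starting at 0. Cd209f, Cd209d, Timd4, Cd163, Lyve1 and Cxcl13 step down from RD-RD through HFD to HFD-RD, whereas Ccl2 and Igf1 have their highest libraries in HFD.

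Other resident macrophage genes had deposited regions that fell short of the rule. At Timd4, regions upstream and inside the gene had HFD-RD minus RD-RD differences of -1.68 and -1.79 but HFD-RD minus HFD differences of only -0.36 and -0.40. At the start of Cd209a the values were -1.82 and -0.64, and at the start of Colec12, a scavenger collectin, -1.66 and -0.66. The 8 regions of the resident list called higher in HFD-RD than in RD-RD (limma) went the other way. Their HFD-RD minus RD-RD differences reached 1.61 at Klf4, 1.24 at Cd5l, 1.22 at F13a1 and 1.15 at Maf. Klf4 and Maf also had lower regions, and these genes were named after their values were seen. The 46 deposited regions of a lipid-associated macrophage list were all called higher in HFD-RD than in RD-RD (limma), against 64.8% of all deposited regions. Of these 46, 0 were among the 545. Both lists were chosen with earlier results of these data known.

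Markers of other cell types did not all move one way. Of the 545 regions, 2 belonged to T cell markers (Cd247 and Lef1), 2 to B cell markers (Pou2af1 and Ebf1) and 2 to endothelial markers (Cdh5 and Kdr), and 0 to NK cell, dendritic cell, neutrophil or fibroblast markers. Against RD-RD, 5 of 6 T cell, 8 of 13 B cell, 6 of 7 dendritic cell and 2 of 2 neutrophil regions were called lower in HFD-RD, against 32.4% of all regions. So were 5 of 12 endothelial, 1 of 3 fibroblast and 0 of 1 NK cell regions. Cd209a is on both the dendritic cell and the resident macrophage list. The summed normalized counts of the B cell regions were 1738 to 1885 in RD-RD, 2014 to 2154 in HFD and 2039 to 2229 in HFD-RD, those of the T cell regions 957 to 1064, 865 to 919 and 874 to 928, and those of the endothelial regions 1958 to 2033, 2213 to 2348 and 2389 to 2442. Those of the dendritic cell regions were 1476 to 1618, 722 to 818 and 606 to 655, and those of the neutrophil regions 429 to 471, 253 to 281 and 171 to 223. The fibroblast regions gave 1272 to 1401, 683 to 850 and 825 to 919, and the NK cell region 28.6 to 41.8, 44.3 to 57.6 and 67.5 to 72.2. No monocyte, mast cell, eosinophil, adipocyte or defining macrophage marker (Adgre1, Cd68, Csf1r and the others on that list) had a region in the tables, so the sorted cell type could not be checked here, and the part of other cells in the result was not tested.

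The single largest of these marker regions was at Pou2af1, which encodes a transcriptional coactivator of B cells. The region chr9:51215415-51215783, inside the gene, gave 115 and 124 in RD-RD, 54.6, 43.6 and 55.0 in HFD, and 9.12 and 19.4 in HFD-RD. Its HFD-RD minus RD-RD difference was -3.06 ± 0.30 and its HFD-RD minus HFD difference -1.85 ± 0.27, on 5 and 21 reads in the HFD-RD libraries. At Ebf1, an early B cell factor, chr11:44617971-44618597 gave 105 and 85.0 in RD-RD, 63.7, 61.7 and 43.0 in HFD, and 18.2 and 52.8 in HFD-RD, and the HFD-RD libraries differed nearly 3-fold. At Cd247, the zeta chain of the T cell receptor complex, chr1:165834046-165834438 gave 107 and 79.2 in RD-RD, 79.0, 88.9 and 76.5 in HFD, and 38.3 and 38.9 in HFD-RD, so RD-RD overlapped HFD. At Lef1, a Wnt-responsive transcription factor, chr3:130951224-130951900 gave 144 and 156 in RD-RD, 104, 96.3 and 164 in HFD, and 73.0 and 57.4 in HFD-RD.

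Chemokine and cytokine genes contributed 4 of their 22 deposited regions (18.2%, against 9.41% of all), 3 of them at Cxcl13. As a list they did not move one way: 9 of the 22 were called lower and 13 higher in HFD-RD than in RD-RD (limma), with a median of 0.84. Over all deposited regions the shares were 32.4% lower and 64.8% higher. Cxcl13 is the ligand of Cxcr5 and draws B cells. The region chr5:95918361-95920028, 38590 bp upstream of the gene start, gave 640.2 and 528 in RD-RD, 169, 149 and 147 in HFD, and 85.7 and 61.1 in HFD-RD, and chr5:95914022-95914929 gave 384 and 379 in RD-RD, 145, 131 and 144 in HFD, and 52.9 and 58.3 in HFD-RD. The region farthest from the gene, chr5:95897728-95898531, gave 377 and 278 in RD-RD, 122, 67.5 and 92.0 in HFD, and 21.9 and 54.6 in HFD-RD. With the authors' scaling all 3 had their larger step between RD-RD and HFD, with differences of -1.90 ± 0.21, -1.44 ± 0.18 and -1.82 ± 0.35, and a further -1.09 ± 0.21, -1.32 ± 0.18 and -1.37 ± 0.35 between HFD and HFD-RD. The one other deposited Cxcl13 region, with -1.86 for HFD-RD minus RD-RD and -0.67 for HFD-RD minus HFD, missed the second threshold.

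Ccl2 encodes the chemoattractant for monocytes that bear Ccr2. It was named after its values were seen because it goes against the name of the set: the region chr11:82011544-82012565, 24027 bp upstream, gave 386 and 406 in RD-RD, 452, 489 and 453 in HFD, and 146 and 202 in HFD-RD. Every HFD library was above both RD-RD libraries, and both HFD-RD libraries were below all others. Its differences were 0.23 ± 0.20 for HFD minus RD-RD and -1.43 ± 0.20 for HFD-RD minus HFD. The sign of the first turns with TMM scaling and with equal totals computed without the 2 regions with the most reads, as for all 7 exceptions.

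Areg and Fgf9 each had 3 regions in the set. Areg encodes amphiregulin, a ligand of the EGF receptor, and all 3 of its deposited regions closed further, within 10066 bp. The start region, chr5:91139060-91140048, gave 582 and 599 in RD-RD, 362, 358 and 334 in HFD, and 188 and 227 in HFD-RD, with a HFD-RD minus RD-RD difference of -1.51 ± 0.20, and the other two had -1.36 ± 0.22 and -1.07 ± 0.24. At Fgf9, a fibroblast growth factor, 3 of 7 deposited regions met the rule, between 251839 and 492551 bp from the gene start, and the other 4 were also lower in HFD-RD than in RD-RD. The strongest of them, chr14:58322386-58322883, gave 106 and 156 in RD-RD, 95.7, 59.2 and 84.3 in HFD, and 52.9 and 14.8 in HFD-RD, where the HFD-RD libraries differed more than 3-fold.

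Axon guidance genes contributed 7 of 33 deposited regions (21.2%, against 9.41% of all), from Unc5a, Sema6a and Efnb2. The list was divided, with 17 regions called lower and 14 higher in HFD-RD than in RD-RD (limma). Over all deposited regions the shares were 32.4% lower and 64.8% higher. Regions of Plxna2, a semaphorin co-receptor named after its values were seen, were higher by up to 2.03. All 3 deposited Unc5a regions closed further, and the pair 30947 and 32692 bp upstream gave 595 and 585 in RD-RD, 294, 319 and 309 in HFD, and 160.5 and 219 in HFD-RD at chr13:54918464-54919402 and 162 and 187 in RD-RD, 70.0, 77.3 and 73.1 in HFD, and 38.3 and 39.8 in HFD-RD at chr13:54916719-54917122. Sema6a encodes a transmembrane semaphorin, and 3 of its 5 deposited regions met the rule. Its start region, chr18:47368658-47369270, gave 392 and 387 in RD-RD, 116, 90.5 and 94.6 in HFD, and 56.5 and 58.3 in HFD-RD, a HFD-RD minus RD-RD difference of -2.74 ± 0.20, of which -1.96 ± 0.19 was already present in HFD and -0.78 ± 0.19 lay between HFD and HFD-RD. Efnb2, the gene of ephrin-B2, had 1 such region among 4 deposited ones, chr8:8452108-8452665, which lies 209134 bp from the gene start and gave 330.1 and 376 in RD-RD, 117, 126 and 80.8 in HFD, and 56.5 and 63.0 in HFD-RD.

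The vessel genes Cdh5 (VE-cadherin) and Kdr (the receptor VEGFR2) each had 1 region, both far from the gene. Of 26 regions of an angiogenesis list, which holds Kdr, 11 were called lower and 15 higher in HFD-RD than in RD-RD (limma), and 2 (7.69%, against 9.41% of all) were among the 545, at Kdr and Efnb2. Of 12 regions of endothelial markers, 5 were called lower and 7 higher. Over all deposited regions 32.4% were called lower and 64.8% higher with the authors' scaling, so a majority of higher regions was not particular to either list. Angpt2, a ligand of the vessel receptor Tie2, was named after its values were seen and had a region over its start that was higher by 1.33. The Cdh5 region, chr8:103940283-103941484, 161342 bp upstream, gave 353 and 406 in RD-RD, 142, 110.3 and 142 in HFD, and 73.0 and 55.5 in HFD-RD. The Kdr region, chr5:75872559-75873002, 105899 bp from the gene start, gave 133 and 107 in RD-RD, 65.5, 85.6 and 64.5 in HFD, and 31.0 and 50.9 in HFD-RD. Other Kdr regions were deposited with HFD-RD minus RD-RD differences from -1.37 to 1.38, so the regions assigned to this gene did not move together.

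Developmental transcription factors had 33 deposited regions, of which 27 were called lower and 6 higher in HFD-RD than in RD-RD (limma). Over all deposited regions 32.4% were called lower and 64.8% higher. Of the 33, 3 were among the 545 (9.09%, near the share of all regions). The region over the start of Foxc2, a forkhead factor of vessel development, chr8:121115831-121117686, gave 471 and 494 in RD-RD, 335, 346 and 347 in HFD, and 197 and 201 in HFD-RD, and that over the start of Hoxd9, a homeobox factor of the body axis, chr2:74697441-74699013, gave 252 and 246 in RD-RD, 199, 154 and 187 in HFD, and 106 and 102 in HFD-RD. The groups did not overlap at either start.

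Regions closing further lay near each other. Of the 454 genes, 381 had 1 such region, 58 had 2 and 15 had at least 3, and 174 regions fell into 78 clusters whose neighbours lie within 100 kb. These counts were not made for all deposited regions, which also lie near each other. Another deposited region lay within 50 kb of 3146 of the 5790 autosomal regions and of 261 of the 545. P3h2, which encodes a prolyl 3-hydroxylase of collagen, had 5 over 86066 bp. Its start region, chr16:26104075-26106706, was the strongest at 1153 and 1058 in RD-RD, 561, 571 and 485 in HFD, and 272 and 244 in HFD-RD. The P3h2 region with the largest loss, chr16:26082718-26083396, 23066 bp inside the gene, gave 351 and 312 in RD-RD, 143, 114 and 119 in HFD, and 31.0 and 37.0 in HFD-RD, with a HFD-RD minus RD-RD difference of -3.25 ± 0.21. The 3 other deposited P3h2 regions were also lower in HFD-RD than in RD-RD without meeting the rule.

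Lpar1, a receptor for lysophosphatidic acid, had 3 regions with HFD-RD minus RD-RD differences from -1.91 to -1.76. At the largest, chr4:58504399-58505198, the counts were 259 and 366 in RD-RD, 235, 245 and 138 in HFD, and 78.4 and 84.2 in HFD-RD. Dpysl3, a cytoskeletal protein of growing axons, had 3 (from -1.70 to -1.32) and 3 other regions that were all lower too. Dclk2, a doublecortin-like kinase, had all 3 of its deposited regions in the set (from -1.84 to -1.25), and Mctp1, a calcium-binding membrane protein, had 3 of 5 (from -1.33 to -1.06). Rreb1, a zinc finger factor, stood apart, with 3 regions in the set (from -1.53 to -1.02) and 3 other deposited regions that were higher in HFD-RD than in RD-RD. The remaining genes with at least 3 regions were 2900057B20Rik with 4 and 6820426E19Rik, Mnd1-ps and Zbtb7c with 3 each.

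Regions that the rule did not choose showed the same neighbourhood. The 170 genes with both kinds had 301 other deposited regions, of which 221 (73.4%) were below RD-RD in HFD-RD, against 26.4% of all other autosomal regions, with a median difference of -1.12 against 1.06, and 52 were higher by at least 1. The nearest deposited region within 50 kb could itself be chosen by the rule, and it was in the set for 108 of 261 regions (41.4%, against 8.17% over all autosomal regions). It was below RD-RD for 227 (87.0%, against 26.0%). That count includes the 108, which the rule places below RD-RD, so the share is partly fixed by the choice of regions. These regions come from the same libraries and the same deposited selection.

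Of the 10 genes with the largest differences from RD-RD, 5 were protein-coding and 5 were noncoding RNA genes or pseudogenes. The largest difference, chr8:103576960-103577734, 26822 bp upstream of the long noncoding RNA 4933400L20Rik, gave 299 and 220.3 in RD-RD, 56.0, 62.5 and 49.9 in HFD, and 25.5 and 19.4 in HFD-RD, a difference of -3.47 ± 0.23. The region chr5:41890811-41891301, beside the microRNA gene Mir6414, gave 153 and 131 in RD-RD, 40.6, 32.1 and 48.1 in HFD, and 12.8 and 12.0 in HFD-RD and differed by -3.41 ± 0.23. Regions assigned to Kctd16, Gm6313 and Gm8979 followed with -3.33, -3.31 and -3.28, then the P3h2 and Cxcl13 regions described above with -3.25 and -3.19. At Tesk1, a protein kinase, chr4:43447079-43447802 gave 147 and 143 in RD-RD, 54.2, 53.5 and 67.1 in HFD, and 16.4 and 13.9 in HFD-RD, a difference of -3.18 ± 0.21, and Pou2af1 and Gm5084 came last with -3.06 and -3.03. Of the 545 regions, 79 (14.5%) were assigned to long noncoding RNAs and 27 (4.95%) to microRNA genes, against 11.8% and 4.04% of all autosomal regions.

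The largest differences from HFD were at Syt3, Tesk1, P3h2, Pou2af1 and Nr2e3. The region chr7:44382600-44382996, 1502 bp upstream of Syt3, a synaptotagmin, gave 57.3 and 97.9 in RD-RD, 42.9, 51.0 and 51.6 in HFD, and 9.12 and 16.7 in HFD-RD, a HFD-RD minus HFD difference of -1.88 ± 0.28. At Tesk1 and P3h2 the difference was -1.87 ± 0.19 and -1.85 ± 0.19. The region near Nr2e3, a nuclear receptor of photoreceptors, differed by -1.78 ± 0.27, that inside Tmprss5, a transmembrane serine protease, by -1.71 ± 0.18, and that over the start of Kif21a, a kinesin motor, by -1.64 ± 0.21. The region chr19:4042050-4042476 at Gstp2, a glutathione transferase, gave 139.5 and 249 in RD-RD, 104, 84.7 and 128 in HFD, and 18.2 and 57.4 in HFD-RD. It differed by -1.65 ± 0.40, but the HFD-RD libraries differed more than 3-fold there and reads may be shared with the near-identical Gstp1 and Gstp3.

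Membership near the thresholds is a matter of small differences: 196 of the 545 regions lay within 0.1 of a threshold. Just inside the first threshold were Rimkla (-1.01), Kif16b (-1.01) and Prickle1 (-1.01), and just outside it 2810459M11Rik (-0.99), Dcaf7 (-0.98) and Kitl (-0.97). Just inside the second were Mir708 (-0.7005), Olfr267 (-0.7011) and Sp8 (-0.7011), and just outside it Ly86 (-0.6996), Arhgap32 (-0.6996) and Rnf152 (-0.6993).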

How the data were processed

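The deposited signal of a region is a normalized count: the authors divided reads by a size factor, 1 for each library. On the values, all were whole multiples of 1 step per library within 1e-06. Further deposited columns, made by the authors, hold a log2 fold change, its standard error, a Wald score, a p-value and its adjusted form; these served only to read which comparison a table belongs to. Tools listed, per the submitters' processing notes, are MACS2 2.0.10, DESeq2, Picard and deepTools, and the build is GRCm38, without roles; aligner and filters: not given in the sources used here. Coordinates count from 1.

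The 7 tables were stacked and the rule applied. limma 3.58.1 (R 4.3.3) was fitted to log2(normalized count + 1) of all 5898 regions with the 3 groups in 1 fit and Benjamini-Hochberg adjustment at 0.05; errors of log2 differences are its SE (4 residual degrees of freedom, prior 7.2). It was tested on simulated data. The rule uses both comparisons with HFD-RD, and HFD minus RD-RD is their difference in the same libraries, so no p-value is given for a member. Depth limits the lowest regions, down to 5 reads in 1 library. Place and gene are the deposited annotation. Promoter windows (250 bases before to 50 after a gene start) come from RefSeq, GRCm38.p6. No chromosome 18 sequence is shown.

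Named regions are the 10 with the largest difference from RD-RD and from HFD (1 per gene) and the 2 largest per gene list. Further ones come from genes with at least 2 member regions, the 10 largest over gene starts and those nearest each threshold. All others, among them Hoxd9, Plxna2 and Angpt2, were named after their values were seen. One result under this rule is not reported here. The members, gene lists and marker lists were chosen with earlier results of these data known. Alternatives were other pseudocounts, a minimum mean of 50, other scalings, a replicate block, limma-trend, each library left out and other thresholds. Equal totals without the 2 regions with the most reads was added after seeing the data.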

Additional observations from a re-analysis of the deposited data

How the results depend on the processing

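The rule selected 464 to 550 regions with pseudocounts of 5 and 0.5, 518 with a minimum mean of 50 normalized counts, 499 with TMM scaling and 521 from log2 of the group means, and 505 to 598 with 1 library left out. Of the 545, 366 were selected again without HFD-RD replicate 1 and 436 without HFD-RD replicate 2. Equal totals selected 940, and 580 once the 2 regions with the most reads were left out of the totals (an alternative chosen after seeing the data). These 2 regions hold 10.0% to 28.2% of a library's normalized counts over the deposited regions. Thresholds of -1 and -1 left 174 and of -1.5 and -0.7 left 301, by construction. Regions called lower in HFD-RD than in HFD numbered 757, 1588 with equal totals, and 119 to 856 with 1 library left out. Those lower in HFD-RD than in RD-RD numbered 1850 to 1906 with 1 library left out, and those lower in HFD than in RD-RD 1417 to 1740. With the replicate number as a replicate block, 241 were called lower in HFD-RD than in HFD, 1901 in HFD-RD than in RD-RD and 1597 in HFD than in RD-RD. The other alternatives, other than leaving out a library, stayed within 1.5 times the main counts. The numbers do not pair the libraries: deviations of same-numbered libraries correlated between -0.0716 and 0.0628. Of 99 named regions, 98 or 99 stayed called against RD-RD under each alternative (95 of the 95 left by the minimum mean). Against HFD 62 lost the call without HFD-RD replicate 1, 25 without HFD-RD replicate 2, 49, 18 and 22 without HFD replicates 1, 2 and 3, 46 with the replicate block and 8 with TMM scaling; none changed direction in either comparison. The causes were not tested. edgeR on whole reads was not run, because the deposited values were not accepted as recovered reads.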
